A study of Arabidopsis thaliana with 21 samples.

Results

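The late embryogenesis abundant (LEA) genes described here are 8 genes of Arabidopsis thaliana, M10 (AT2G41280), M17 (AT2G41260), AT2G42560, LEA18 (AT2G35300), LEA4-5 (AT5G06760), AtLEA4-1 (AT1G32560), AT2G46140 and AT2G44060. Each is measured by 1 probe set that the platform annotation gives to it alone, and 13286 genes have such a probe set among the 22746 probe sets tested. The genes were named by family with earlier results of these arrays known, among them the lower values of M10 after 18 h of red light and of M17 in the pif3 mutant. For the 18 h red light comparison, the pif3 comparison and the comparisons that share their arrays, the values below are therefore a description and carry no test of the 8 genes. The lists of other genes used below were chosen with earlier results known too. Their adjusted p values are likewise a description.

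PIF3 is a basic helix-loop-helix factor that binds active phytochrome and holds back light responses in darkness. The study asked how darkness, red light and the loss of PIF3 set transcript levels in seedlings. Whole Col-0 seedlings were grown in darkness for 4 days, after 4 days of cold at 4 °C and 3 h of white light, on medium without sucrose. Wild type was collected then (WT_D0), or given a further 1 h or 18 h of darkness (WT_D1, WT_D18) or of continuous red light (WT_R1, WT_R18). Mutant pif3 seedlings were taken in darkness at the first 2 times (pif3_D0, pif3_D1). Each of the 7 groups had 3 biological replicates and 1 array per replicate, 21 arrays in all. The labels do not name the pif3 allele, and PIF3 itself was not analysed here, so the genotype rests on the labels. No group combines pif3 with red light. The dark groups are labelled etiolated and the red light groups deetiolated, and the summed signal of 8 greening genes ran from 32848 to 37549 units in WT_R18 against 10384 to 17306 units in all other arrays.

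LEA proteins are mostly very hydrophilic proteins that accumulate in the embryo as the seed dries and are thought to protect membranes and enzymes from loss of water. Their genes are typical targets of abscisic acid and of the seed regulators ABI3 and ABI5, a B3-domain factor and a bZIP factor. In most cases their transcripts are abundant in the mature seed and decline after germination, and several return in leaves under drought, salt or cold. Most LEA proteins are unfolded in water, while those of the LEA_2 group fold into a compact domain. By protein domain the 8 genes fall into 4 groups: the AtM pair M10 and M17, which was described from late embryos, AT2G42560 of the LEA_4 group, LEA18, LEA4-5 and AtLEA4-1 of the LEA_1 group, and AT2G46140 and AT2G44060 of the LEA_2 group.

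Values are quantile-normalized intensities in arbitrary units, some lie below 0, and levels of different probe sets are not compared. Changes are on the log2(value + 16) scale, which understates the change of dim probe sets, and no detection call was used. The 25S rRNA control signal, which differed between arrays for a cause the labels do not give, lay at 128 to 466 units in WT_R1, at 2650 to 3423 units in WT_R18 and at 4289 to 5410 units in the 6 pif3 arrays. In dark wild type it ran from 365 units in WT_D18 replicate 1 to 4927 units in WT_D0 replicate 3. A lower signal of a whole seedling can mean fewer cells of a type or less RNA per cell, which cannot be told apart here.

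After 18 h of red light, 7 of the 8 genes were lower than after 18 h more of darkness and 1, AT2G44060, was higher. M10 lay below 0 in every WT_R18 array. It had the largest change at the offset of 16, but at an offset of 64 M17 changed more, with -1.93 against -1.70. All 8 passed the limma threshold of an adjusted p under 0.05 over all probe sets, where 34.4% of all probe sets passed (20.3% lower and 14.1% higher). Since this contrast was known when the genes were named, nothing is read from that count. The median log2 change of the 8 was -1.23, and that of all probe sets tested was -0.04.

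M10 had 156, 89.2 and 203 units in the 3 WT_D18 arrays and -6.53, -33.9 and -33.9 units in the 3 WT_R18 arrays. The groups were far apart, and each WT_R18 value lies below 0, so no fold is given. The log2 change was -3.31 (SE 0.30), and its size rests on the offset: it ran from -5.19 to -1.70 over the 14 alternatives run.

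M17, the neighbour of M10 on chromosome 2 with no protein-coding gene between them in the RefSeq gene order, kept a signal. It had 334, 339 and 632 units in WT_D18 and 65.4, 64.1 and 57.9 units in WT_R18, a log2 change of -2.46 (SE 0.26). The 3 WT_R18 arrays lay within 8 units of each other, while WT_D18 replicate 3 stood well above the other WT_D18 arrays.

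AT2G42560, a LEA_4 gene, was dim throughout. It had 62.2, 66.9 and 125 units in WT_D18 and 2.92, -0.115 and -0.855 units in WT_R18, so it lay near 0 in every array after 18 h of red light. Its log2 change was -2.52 (SE 0.31), and it ran from -4.14 to -1.17 over the 14 alternatives.

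The 3 LEA_1 genes were lower but stayed well measured. LEA18 had 1118, 947 and 1301 units in WT_D18 and 556, 419 and 285 units in WT_R18, a log2 change of -1.42 (SE 0.28). LEA4-5, whose protein protects enzymes from drying in vitro, had 758, 623 and 879 units against 499, 392.3 and 229.9 units, a log2 change of -1.03 (SE 0.28). For both genes the groups did not overlap, and the WT_R18 arrays were spread widely, with replicate 1 highest and replicate 3 lowest. AtLEA4-1, of the same group, overlapped: 873, 686 and 1141 units against 697, 484 and 328 units, a log2 change of -0.85 (SE 0.31).

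The LEA_2 genes parted. AT2G46140 had 164, 155 and 143 units in WT_D18 and 104, 94.7 and 85.2 units in WT_R18, with little spread, and its log2 change was -0.62 (SE 0.11). AT2G44060 had 1072, 986 and 995 units in WT_D18 and 1162, 1307 and 1279 units in WT_R18, a log2 change of 0.29 (SE 0.08). For AT2G44060 the WT_D18 arrays were the low ones: WT_R18 lay inside the range of the other 5 groups, 1105 to 1372 units. Over the 8 genes, 6 had all WT_R18 arrays below all WT_D18 arrays, where 28.4% of all probe sets did, and 1 had them all above, where 19.6% did.

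**Figure D1:**
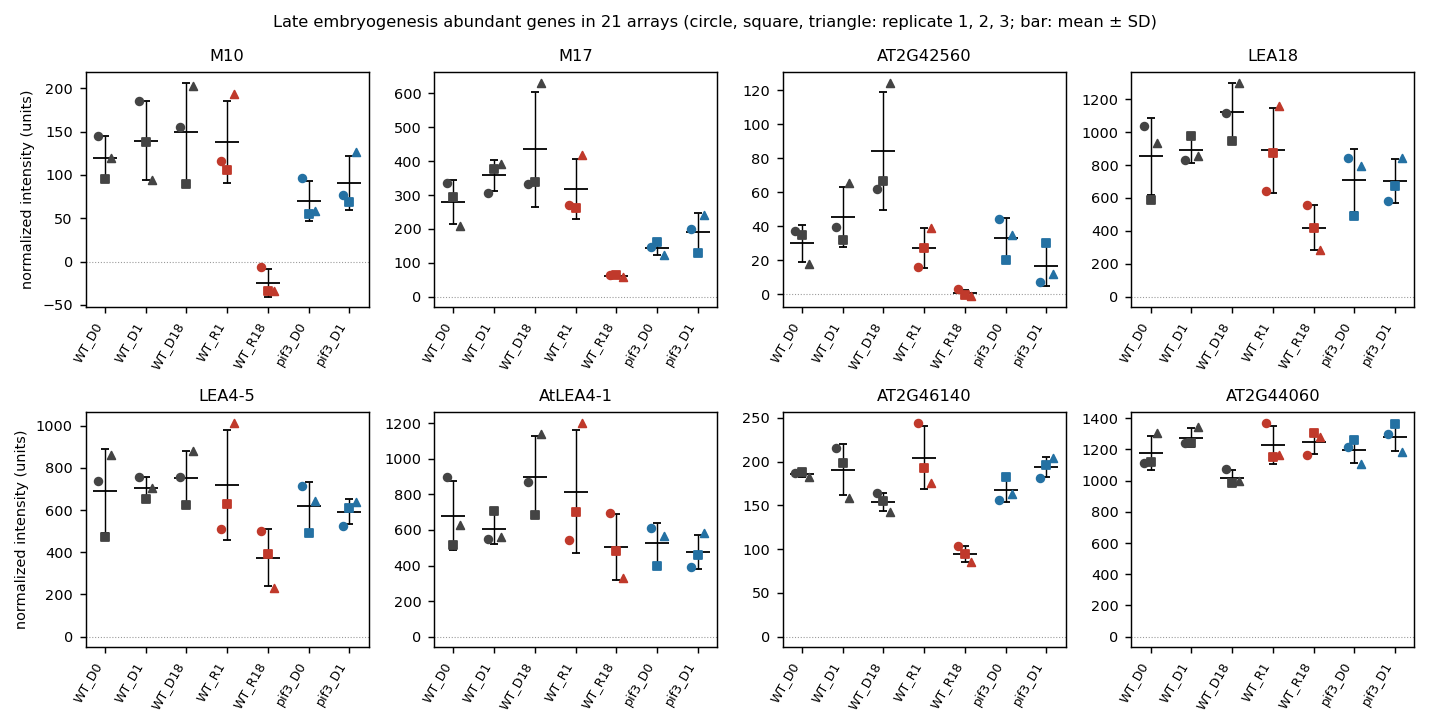
Normalized intensity (units, linear axes that differ between panels) of the 8 genes in each array, by group, with dark wild type in grey, red light in red and pif3 in blue. Symbols are replicates and bars are the mean ± SD of 3 arrays. M10 lies below 0 in the 3 WT_R18 arrays, and AT2G44060 is lowest in WT_D18.

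The 18 h call of AtLEA4-1 was the least secure. It was lost in 9 of 14 alternatives, among them without WT_D18 replicate 1 (-0.86), WT_D18 replicate 3 (-0.67), WT_R18 replicate 2 (-0.86) or WT_R18 replicate 3 (-0.59), with a replicate block (-0.85) and with the 25S rRNA signal entered in the fit (-0.73). LEA4-5 lost its call without WT_R18 replicate 3 (-0.73). Both genes lost it with only the compared groups fitted, at the same changes. With no scaling between arrays, M10, M17, AT2G42560 and LEA18 were the 4 genes still called.

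After 1 h of red light no change was detected in any of the 8 genes. This comparison shares the WT_D1 arrays with the pif3 comparison, so its values are a description too. None of the 8 was called by limma, where 4.94% of all probe sets were. None had an unadjusted p under 0.05, beside 3383 of all 22746 probe sets. The smallest adjusted p of limma's test was 0.51, for AT2G42560, with a log2 change of -0.51 (SE 0.31). M10 changed by -0.01 (SE 0.30), with 185, 138 and 94.6 units in WT_D1 and 116, 106 and 193 units in WT_R1. M17 changed by -0.19 (SE 0.26), with 307, 378 and 391 units in WT_D1 and 270.1, 263 and 419 units in WT_R1. In both genes WT_R1 replicate 3 was the high array and the groups overlapped.

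AtLEA4-1 was spread widely within WT_R1. It had 541, 701 and 1204 units there against 549, 707 and 563 units in WT_D1, a log2 change of 0.35 (SE 0.31). LEA18 changed by -0.04 (SE 0.28) and LEA4-5 by -0.03 (SE 0.28). The LEA_2 genes had the narrowest errors: AT2G46140 changed by 0.09 (SE 0.11) and AT2G44060 by -0.06 (SE 0.08). The difference between the 18 h and the 1 h red light changes passed its own test for 6 of the 8 genes, where 18.8% of all probe sets passed, and nothing is read from it. With SEs near 0.3 a moderate early change of the other genes was not detectable with 3 arrays a group.

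From 1 h to 18 h in red light, 6 of the 8 genes were called lower, where 14.3% of all probe sets were, and none was called higher, where 11.9% were. This comparison shares the WT_R18 arrays with the one above. M10 changed by -3.23 (SE 0.30), M17 by -2.06 (SE 0.26), AT2G42560 by -1.32 (SE 0.31) and LEA18 by -1.06 (SE 0.28). AT2G46140 changed by -0.99 (SE 0.11), more than its change against darkness. LEA4-5 changed by -0.92 (SE 0.28), AtLEA4-1 by -0.66 (SE 0.31) without a call, and AT2G44060 by 0.03 (SE 0.08) without a call. LEA18 and LEA4-5 lost this call without WT_R1 replicate 3 (-0.86 and -0.65) or WT_R18 replicate 3 (-0.82 and -0.62), with the 25S rRNA covariate (-0.77 and -0.83), and with only the compared groups fitted, at the same changes.

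In darkness over the same 17 h of age, from WT_D1 to WT_D18, none of the 8 was called, where 0.0528% of all probe sets were. Of the 8, 3 had an unadjusted p under 0.05, as did 3713 of all 22746 probe sets. AT2G42560 changed by 0.69 (SE 0.31), from 39.4, 32.1 and 65.7 units to 62.2, 66.9 and 125 units. AtLEA4-1 changed by 0.54 (SE 0.31), LEA18 by 0.32 (SE 0.28), M17 by 0.21 (SE 0.26), LEA4-5 by 0.09 (SE 0.28) and M10 by 0.07 (SE 0.30). The LEA_2 genes had the opposite sign, with AT2G44060 at -0.32 (SE 0.08) and AT2G46140 at -0.28 (SE 0.11). AT2G44060 was the 1 gene whose WT_D18 arrays all lay below its WT_D1 arrays (1240.5, 1239.5 and 1346 units), as 13.2% of all probe sets did. WT_D18 replicate 3 was the highest of its group for M10, M17, AT2G42560 and the 3 LEA_1 genes.

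**Figure D2:**
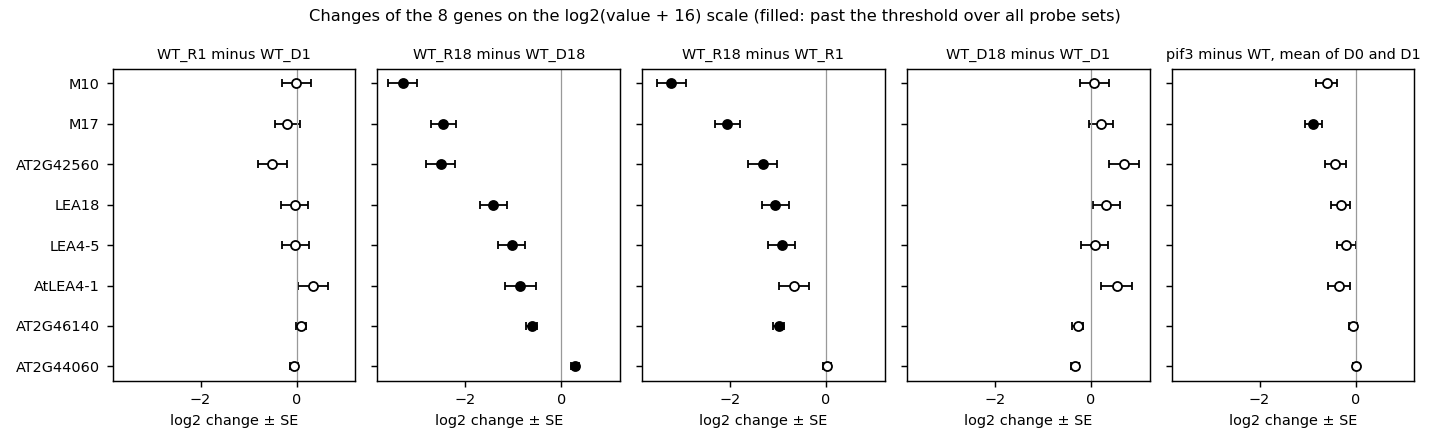
Log2 change ± SE of each gene in 5 comparisons, with a shared horizontal axis. Filled points passed the threshold over all probe sets. No point for 1 h of red light or for the dark course is filled. They lie between -0.51 and 0.69, both for AT2G42560, and those for 18 h of red light spread from -3.31 for M10 to 0.29 for AT2G44060.

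In darkness the pif3 mutant had less M17 than wild type. M17 had 148, 162 and 122 units in pif3_D0 against 336, 294 and 209 units in WT_D0, and 200.1, 130.1 and 242 units in pif3_D1 against 307, 378 and 391 units in WT_D1. The groups did not overlap at either time. M17 shared this with AT2G46140 at D0, where 5.91% of all probe sets had all pif3 arrays below wild type, and with AT2G42560 and LEA4-5 at D1, where 8.21% had. The log2 change as the mean of both times was -0.88 (SE 0.18). M17 was the 1 gene of the 8 called, where 1.78% of all probe sets were (0.655% lower), and this contrast was known when the genes were named.

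M10 had 96.6, 55.5 and 58.5 units in pif3_D0 and 77.1, 68.2 and 126 units in pif3_D1. The wild-type arrays had 145, 95.05 and 119 units in WT_D0 and 185, 138 and 94.6 units in WT_D1, so the groups overlapped at each time. Its log2 change was -0.61 (SE 0.21), without a call. The mean of M10 was 70.2 ± 22.9 units in pif3_D0 and 90.5 ± 31.2 in pif3_D1, against 119.8 ± 25.1 in WT_D0 and 139 ± 45.5 in WT_D1 (SD, n = 3 each).

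The other genes had smaller differences, none of them called: -0.43 (SE 0.22) for AT2G42560, -0.35 (SE 0.22) for AtLEA4-1, -0.31 (SE 0.20) for LEA18 and -0.19 (SE 0.20) for LEA4-5. The LEA_2 genes lay near 0, with AT2G46140 at -0.06 (SE 0.08) and AT2G44060 at 0.01 (SE 0.06). In all, 7 of the 8 were below 0, beside 48.1% of all probe sets. The genes share arrays and this contrast was known when they were named, so nothing is read from that count. For none of the 8, nor any of 22746 probe sets, did the genotype difference pass limma's test of change between D0 and D1. An unadjusted p under 0.05 was found for 857 of all probe sets and 1 of the 8. The largest difference between the times among the 8 was that of AT2G42560 at -1.04 (SE 0.44). AT2G42560 had 33.1 ± 12.0 units in pif3_D0 against 30.0 ± 10.8 in WT_D0. At D1 it had 16.6 ± 11.9 units in pif3_D1 against 45.7 ± 17.7 in WT_D1 (SD, n = 3 each).

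The M17 call was lost in 6 of the 12 fits that left out 1 array. Over these 12 fits the log2 change stayed between -0.97 and -0.77. The call was lost without WT_D0 replicate 1 (-0.81), WT_D1 replicate 2 (-0.86), WT_D1 replicate 3 (-0.85), pif3_D0 replicate 1 (-0.89), pif3_D0 replicate 3 (-0.83) or pif3_D1 replicate 1 (-0.91). It was lost with the 25S rRNA covariate too (-0.83), a signal that was high in all 6 pif3 arrays and low in WT_D0 replicate 1 and WT_D1 replicate 2, and with no scaling (-0.96), where the direction was the same.

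Ordered by group mean, M10 and M17 ran alike: WT_D18, WT_D1, WT_R1, WT_D0, pif3_D1, pif3_D0 and WT_R18. Neighbours in this order overlapped in range except for the last step, from pif3_D0 to WT_R18. LEA18 and LEA4-5 shared an order as well, WT_D18, WT_R1, WT_D1, WT_D0, pif3_D0, pif3_D1 and WT_R18, again with a gap only before WT_R18. AtLEA4-1 had overlapping ranges at every step, and its lowest mean was that of pif3_D1 at 478 ± 96.7 units, beside 503 ± 185 units in WT_R18 (SD, n = 3 each). AT2G42560 had a gap only between pif3_D1, at 16.6 ± 11.9 units, and WT_R18, at 0.651 ± 2.002 units.

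AT2G46140 was highest in WT_R1, at 205 ± 35.8 units, and had gaps between WT_D0 and pif3_D0 and between WT_D18 and WT_R18. AT2G44060 was highest in pif3_D1, at 1281 ± 89.7 units, and its 1 gap lay between WT_D0 and WT_D18, its lowest group at 1018 ± 47.1 units. The 6 genes of the AtM, LEA_4 and LEA_1 groups therefore had their highest mean in WT_D18, and the LEA_2 genes did not.

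Among arrays of the same group, the LEA_1 genes moved closely together and the other genes less so or not at all. After each group's mean was taken away, the 3 LEA_1 pairs correlated at r of 0.857 to 0.944 over 21 arrays: LEA18 with AtLEA4-1 at 0.944, LEA18 with LEA4-5 at 0.909 and LEA4-5 with AtLEA4-1 at 0.857. The 15 pairs of the 6 genes outside LEA_2 ran from 0.19, for M10 with AT2G42560, upward. M10 and M17 correlated at 0.522, M10 with AtLEA4-1 at 0.641, M17 with LEA18 at 0.308 and M17 with LEA4-5 at 0.241. The 12 pairs of a LEA_2 gene with one of the other 6 ran from -0.522 to 0.000156. These correlations describe values that share arrays and their scaling.

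In WT_D18 replicate 3 and in WT_R1 replicate 3, the 6 genes outside LEA_2 were each the highest of their group. In replicate 1 of WT_D0, WT_R18 and pif3_D0 and in pif3_D1 replicate 3, 5 of the 6 were highest, and in WT_R18 replicate 3 and pif3_D0 replicate 2, 5 were lowest. LEA18, LEA4-5 and AtLEA4-1 deviated by 0.41, 0.55 and 0.63 in WT_R1 replicate 3 and by -0.49, -0.60 and -0.53 in WT_R18 replicate 3, on the log2 scale. M10 had no deviation in WT_R18, where its 3 arrays were floored at 0. Without WT_D18 replicate 3 and WT_R1 replicate 3, a choice made after seeing the data, 7 of the 8 genes were still called at 18 h of red light, and AtLEA4-1 was not.

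**Figure D3:**
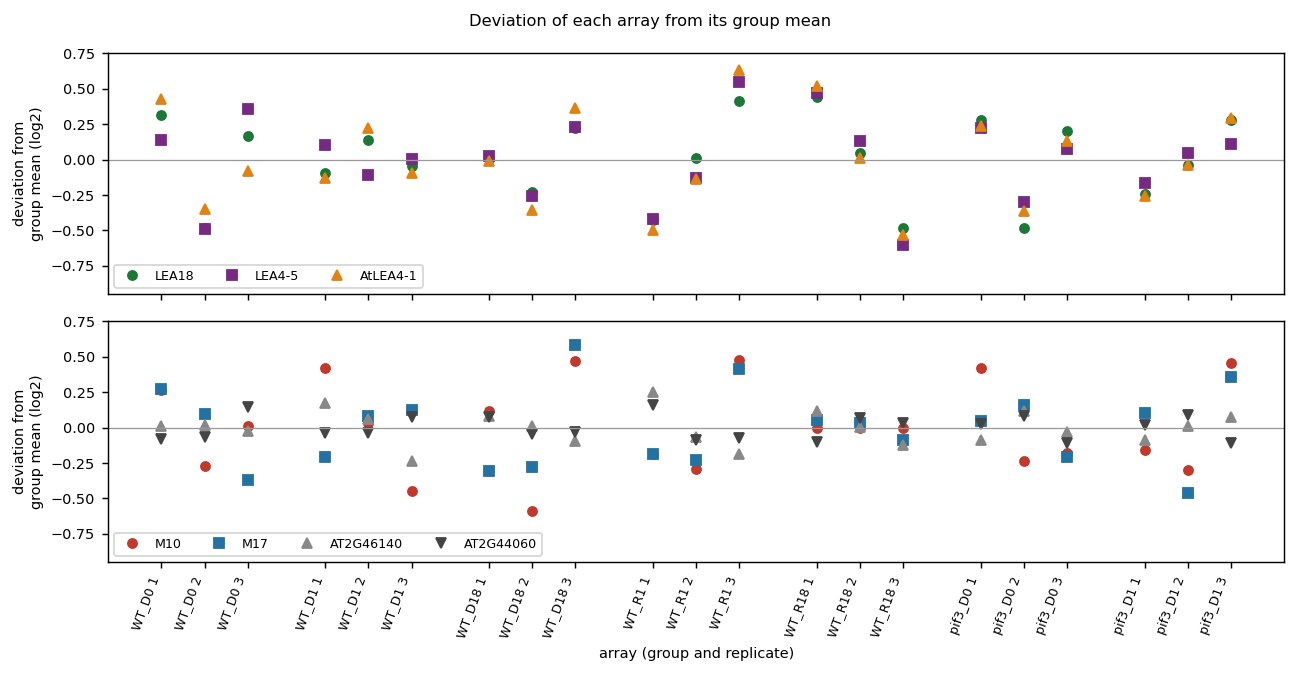
Deviation of each array from its group mean (log2 units) for the 3 LEA_1 genes (upper panel) and for M10, M17 and the LEA_2 genes (lower panel), with arrays on the horizontal axis by group and replicate. The LEA_1 symbols lie close together in most arrays, and those of AT2G46140 and AT2G44060 stay nearer to 0.

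Markers of seed reserves were lower along with the 6 genes after 18 h of red light. Of a list of 17 seed storage and oil body genes, the annotation used here names a probe set of their own for 3, and the others were not analysed. The 3 are PAP85, a vicilin-like storage protein gene, and OLEO3 (AT5G51210) and AT3G01570, both oleosins. Their summed level ran from 184 to 355 units in WT_R18, 2667 to 3695 in WT_D18, 2025 to 2734 in WT_R1, 1402 to 1928 in pif3_D0 and 1651 to 1911 in pif3_D1, against 1832 to 3162 in WT_D0 and 2474 to 3117 in WT_D1. All 3 fell after 18 h of red light, with log2 changes of -3.75 for PAP85, -2.53 for OLEO3 and -3.31 for AT3G01570 (limma adjusted p at most 5.1e-07). The list was chosen with earlier results of these data known, so these p values are a description. In pif3 none of the 3 was called by limma, where 1.78% of all probe sets were, and all were below 0, beside 48.1% of all probe sets. Each had an unadjusted p under 0.05, as did 3410 of all 22746 probe sets. In the dark course, where the 6 genes lay above 0, OLEO3 was at -0.39 (SE 0.14), PAP85 at 0.50 and AT3G01570 at 0.23, none of them called. None of the 3 had a group mean under 16 units.

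Within groups the mean of these 3 genes correlated with LEA18 at 0.553, AtLEA4-1 at 0.477, LEA4-5 at 0.474, M10 at 0.456, AT2G42560 at 0.176, M17 at 0.09, AT2G44060 at -0.0293 and AT2G46140 at -0.298 over the 21 arrays. The part of seed-reserve RNA in the results of the 8 genes was not tested, nor was that of the greening genes, which all rose after 18 h of red light.

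A list of 51 LEA family genes and their domain groups was written from general knowledge of the family and could not be checked against a file, so the family counts rest on it. It was chosen with earlier results of these data known, so the adjusted p values of its genes are a description. For 35 of the 51 the annotation names a probe set of their own, the 8 genes and 27 others. After 18 h of red light, 15 of the 27 others fell and 1 rose, beside 20.3% and 14.1% of all probe sets, and 11 were not called. Their median log2 change was -0.69. Of the 27, 8 had a mean under 16 units over all arrays, and of those 8, 1 was called.

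Every sub-family with more than 1 measured gene held both called and uncalled members, except the AtM, LEA_1 and LEA_2 groups, whose measured genes are all among the 8. Of the 15 measured LEA_4 genes 10 were called lower, AT2G42560 included, where 20.3% of all probe sets were. Of the 15, 12 were below 0, beside 55.0% of all probe sets. AT1G72100 fell by 1.53 (limma adjusted p = 0.00022), and the log2 changes were -1.42 for AT3G15670 (limma adjusted p = 0.0039), -1.38 for AT3G17520 (0.0041) and -1.34 for AT4G21020 (0.0033). AT3G15670 went from 1266 ± 285 units in WT_D18 to 479.5 ± 194 in WT_R18, and AT1G72100 from 198 ± 31.6 to 58.4 ± 10.2 (SD, n = 3 each). From WT_R1 to WT_R18 AT3G15670 (-1.32) and AT1G72100 (-1.05) were called lower, and AT3G17520 (-0.48) and AT4G21020 (-0.87) were not called.

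The dehydrins are LEA proteins with a lysine-rich repeat that is tied to cold and drought. Of the 6 measured, 5 were below 0 after 18 h of red light, beside 55.0% of all probe sets. Of the 6, 3 were called lower and 1 higher, where 20.3% and 14.1% of all probe sets were, and 2 were not called. The gene named LEA (AT2G21490) fell by 1.83 (SE 0.27, limma adjusted p = 7.5e-05), from 376 ± 62.1 to 95.8 ± 28.5 units (SD, n = 3 each). COR47, an abundant cold-regulated dehydrin, fell by 0.37 (SE 0.11, limma adjusted p = 0.014), from 6524 ± 381 to 5090.0 ± 942 units. AT4G39130 was at -0.70 (SE 0.22, limma adjusted p = 0.024), from 59.8 ± 10.2 to 31.6 ± 11.9 units. Its WT_D18 mean was the high one: WT_D1 had 26.3 ± 7.32 units, below WT_R18. From WT_R1 to WT_R18 it changed by -0.32 (SE 0.22), without a call. LTI30, a low-temperature-induced dehydrin, rose by 0.66 (SE 0.21, limma adjusted p = 0.024), with 623, 682 and 888 units at the lowest, median and highest WT_D18 array and 873, 1257 and 1397 units in WT_R18. The WT_R18 and WT_D18 ranges of LTI30 overlapped slightly.

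AT2G23110, a PvLEA18 gene, fell by 1.90 (limma adjusted p = 6.7e-05) from 223 ± 63.4 to 47.2 ± 12.7 units, while its neighbour AT2G23120 was at -0.12 (adjusted p = 0.51). COR15A and COR15B, a tandem pair for cold-regulated chloroplast proteins, lie 1 and 2 protein-coding genes away from AT2G42560. COR15A lay near 0 in WT_D18 already, so a fall could not have been seen, and its change was 0.20 (limma adjusted p = 0.28). COR15B was at 22.9 ± 5.91 units in WT_D18 and 47.98 ± 8.84 in WT_R18, a change of 0.72 (adjusted p = 0.12). DI21, a drought-induced LEA_3 gene, fell by 1.27 (limma adjusted p = 0.00021).

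**Figure D4:**
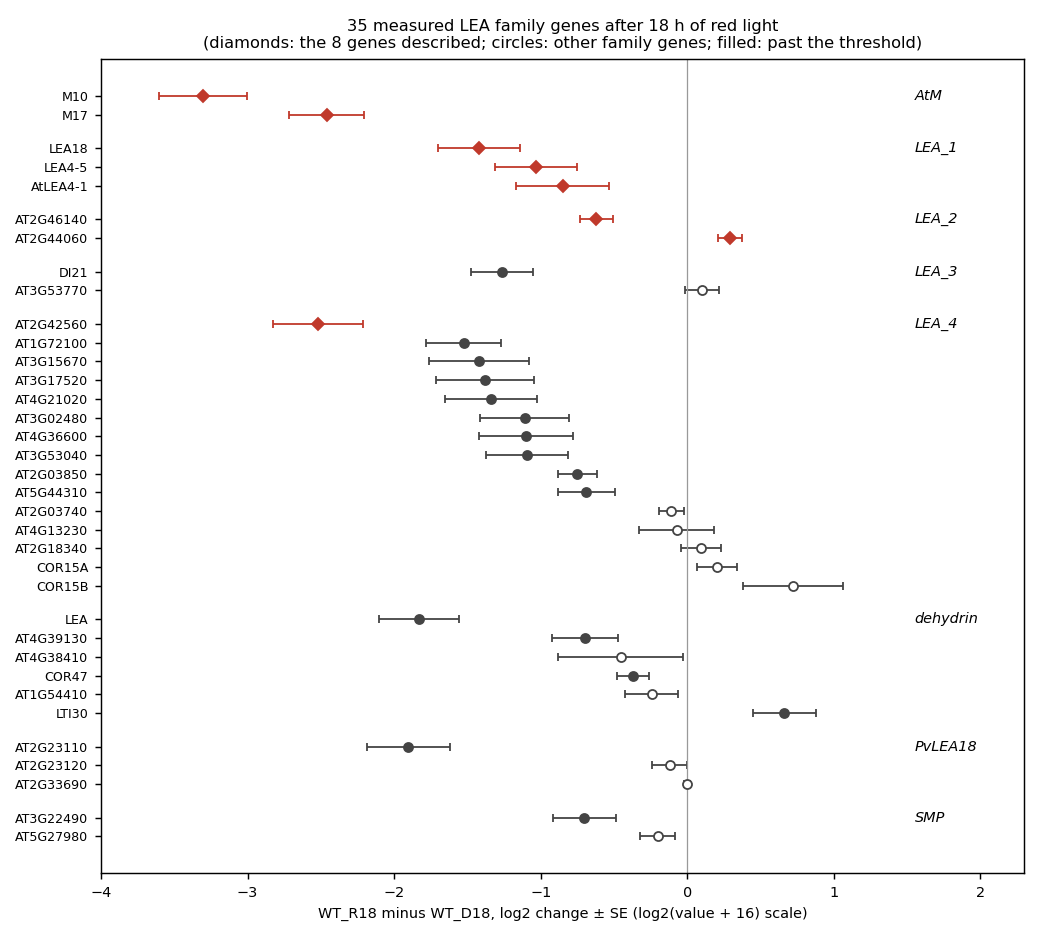
Log2 change ± SE between WT_R18 and WT_D18 for the 35 measured family genes, grouped by protein domain. Red diamonds are the 8 genes, grey circles the 27 others, and filled symbols passed the threshold. Most changes are negative, and LTI30 and AT2G44060 are the 2 genes past the threshold on the positive side.

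At 1 h of red light none of the 27 others was called by limma, where 4.94% of all probe sets were. Of the 27, 4 had an unadjusted p under 0.05, beside 3383 of all 22746 probe sets. In pif3 none of the 27 was called, where 1.78% of all probe sets were, and 3 had an unadjusted p under 0.05, beside 3410 of 22746. There 20 of the 27 were below 0, beside 48.1% of all probe sets, with a median of -0.12. In the dark course none was called, where 0.0528% of all probe sets were, and 5 had an unadjusted p under 0.05, beside 3713 of 22746. From WT_R1 to WT_R18, 8 fell and 2 rose, beside 14.3% and 11.9% of all probe sets.

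Of 18 listed seed maturation regulators, the annotation used here names a probe set of its own for 1, EEL, and the others were not analysed. EEL, a bZIP factor that binds the promoter of a LEA gene at the site ABI5 uses, went from 156 ± 26.9 units in WT_D1 to 90.4 ± 9.88 in WT_R1 and from 165 ± 5.50 in WT_D18 to 41.4 ± 8.04 in WT_R18 (SD, n = 3 each). It fell by 0.69 at 1 h (SE 0.11, limma adjusted p = 0.0011) and by 1.66 at 18 h (SE 0.11, limma adjusted p = 1.7e-08). This list too was chosen with earlier results known, so its p values are a description. In pif3 it was at -0.31 (SE 0.08, adjusted p = 0.066). The genes listed for abscisic acid synthesis, abscisic acid signalling and the dehydration response had no probe set that the annotation used here names for them alone, and they were not analysed here.

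The genes most alike to each member were found among 6705 named genes whose brightest group mean was at least 64 units, by Pearson's r over the 21 arrays. For M10 they were AT5G01670 (r = 0.966), AT3G05260 (0.96) and AT5G66780 (0.949), and for M17 AT5G45690 (0.922), PAP85 (0.903) and TBL38 (0.895). LEA18 was nearest to AT3G15670 (0.975), AT5G07330 (0.968) and AT2G38905 (0.964). LEA4-5 shared the first 2 of these, at 0.945 and 0.942, followed by AT4G31830 (0.926).

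AtLEA4-1 was nearest to AT3G58450 (0.955), AT3G53040 (0.929), itself a LEA_4 gene, and AT2G25890 (0.912). AT2G42560 was nearest to AT1G18160 (0.917), AT5G16680 (0.911) and AT5G42950 (0.875). AT2G46140 was nearest to AT5G42860 (0.927), AT2G24300 (0.918) and AT4G32460 (0.918). AT2G44060 was nearest to CRT1b (0.907), scpl35 (0.901) and RALFL34 (0.901). These values describe likeness over arrays that all the genes share.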

How the data were processed

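Whole seedlings were hybridised to 1-colour Affymetrix arrays from 5 ug of total RNA, per the labels' protocols. The authors deposited 1 linear intensity per probe set and array. No source used here names the summarising software or scaling. Array medians ran from 36.1 to 103 units, and 9.78% to 12.1% of an array's values lay below 0. The number of arrays limits the precision.

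Values were quantile normalized, floored at 0, given an offset of 16 and log2-transformed, and 64 control probe sets were set aside. The 7 group means were estimated together from all 21 arrays (limma 3.58.1, R 4.3.3), with Benjamini-Hochberg adjustment over 22746 probe sets. The steps were tested on simulated data. Probe sets were named through the platform annotation (13513 with 1 gene, 503 with several, 8730 not listed) and RefSeq's gene table of TAIR10.1. The 8 genes and all lists were chosen with earlier results of these data known. The named genes are the 8 members, the other family genes and up to 4 called genes of each further list. For each member the 3 most alike genes outside the 8 are named too. Deviations of same-numbered arrays of different groups correlated at r of -0.25 to 0.484, with medians of 0.00437, -0.00936 and -0.0152 for replicates 1, 2 and 3. The main fit did not pair arrays by number. Whether the numbers pair arrays of some groups was not settled by these values. Alternatives changed the offset, scaling, filter, groups fitted, block, covariate and arrays.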

Additional observations from a re-analysis of the deposited data

Results flagged for a closer look

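The change at 18 h of red light differed from the change at 1 h for 6 of the 8 genes by limma's test of that difference, which 18.8% of all probe sets passed. The 18 h contrast was known when the genes were named, so these values are a description. The difference was -3.30 for M10, -2.27 for M17, -2.01 for AT2G42560, -1.39 for LEA18, -0.71 for AT2G46140 and 0.35 for AT2G44060. It was -1.20 for AtLEA4-1 and -1.01 for LEA4-5, which did not pass. The pass of AT2G44060 was lost in 16 of 20 alternatives and that of LEA18 in 6, among them without WT_D18 replicate 3 (-1.27), WT_R1 replicate 3 (-1.18) or WT_R18 replicate 3 (-1.14). AtLEA4-1 passed without WT_R1 replicate 1 (-1.45) or WT_R18 replicate 1 (-1.46), and LEA4-5 passed without these arrays too (-1.22 and -1.24).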

How the results depend on the processing

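Without scaling, 165 probe sets were called at 1 h of red light, 1997 at 18 h, 4 for pif3, 0 in the dark course, 1164 in the red course and 639 for the difference of the red light changes. The share of higher calls then was 80.0% at 1 h (56.3% with scaling), 75.8% at 18 h (41.0%), 71.2% in the red course (45.4%) and 87.5% for the difference (49.5%). Of the 8 genes, 4 were then called at 18 h, 0 for pif3, 2 in the red course and 1 for the difference. The median of all probe sets moved to -0.11 in the dark course and 0.24 for the pif3 difference between times. With the 25S rRNA covariate 620 probe sets were called at 1 h, 251 for pif3, 1 in the dark course, 2929 in the red course and 2172 for the difference, with 0 of the 8 genes for pif3 and 3 for the difference. The share of higher calls was 60.3% for the difference and, from only 4 calls without scaling, 1 of 4 for pif3 (63.3% with scaling). With only the compared groups fitted, 728 were called at 1 h, 229 for pif3 and 0 in the dark course.

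The replicate block gave 4 calls in the dark course against 12, and AtLEA4-1 at 18 h of red light was the 1 gene of the 8 to lose a call in the comparisons of 2 groups. The correlations of same-numbered arrays did not settle whether the numbers pair them, and 9 of 21 arrays correlated best with their own number. Without both WT_D18 replicate 3 and WT_R1 replicate 3, 0 probe sets were called in the dark course. Leaving out 1 array at a time gave 861 to 1006 calls at 1 h, 6568 to 7328 at 18 h, 179 to 559 for pif3, 0 to 8 in the dark course, 4779 to 5485 in the red course, 3530 to 4518 for the difference and 0 to 8 for the pif3 difference between times. Of the 8 genes it gave 0 at 1 h, 6 to 8 at 18 h, 0 to 1 for pif3, 0 in the dark course, 4 to 6 in the red course and 4 to 8 for the difference.

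At 1 h, where no gene was called, leaving out 1 array turned the sign of M10 (-0.25 to 0.20), LEA18 (-0.24 to 0.18), LEA4-5 (-0.30 to 0.18) and AT2G46140 (-0.035 to 0.19), and the 25S rRNA covariate that of AtLEA4-1 (-0.058) and AT2G46140 (-0.0068). The cause was not tested. Each gene had 1 probe set, so the alternative of other probe sets could not be run. M10 and AT2G42560 lie below or near 0 in WT_R18, and their changes there have no set size.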
